A study of Mus musculus with 9 samples.

Results

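The Fat4, Hippo and YAP genes examined here were 10 members chosen by symbol in the table of read counts: the giant atypical cadherins Fat4 and Fat1, the Fat4 ligand Dchs1, the co-activators Yap1 and Wwtr1 (TAZ), the DNA-binding factors Tead1 and Tead2, and the target genes Ctgf, Cyr61 and Amotl2. All 10 had a row among the 45808 gene symbols, and 9 passed the filter on low counts, Dchs1 being the exception. The libraries were made from mK4 cells, a mouse line of embryonic kidney mesenchyme origin, kept in medium with 10% fetal bovine serum. The mutant group was clone F7 (n = 4). Its Foxd2 alleles, of a forkhead transcription factor gene, were both frameshifted by CRISPR/Cas. The control group had been through the same CRISPR/Cas procedure with a guide that has no target and is Foxd2 wild type (n = 5). F7 is a single clone, so its genotype and its clonal origin cannot be told apart. Nothing in the labels calls the replicates separate cultures, so each p-value rests on a spread between libraries that may be only technical. Between replicates the counts differed by more than sampling noise, with a chi-square per degree of freedom (1 for sampling noise alone) of 5.40 to 37.7 between control libraries. It was 3.44 between F7 replicates 1 and 2 and 3.86 between F7 replicates 3 and 4, against 6.88 to 10.05 for the other F7 pairs. By this value the 4 F7 libraries lay in 2 closer pairs. For a given relative spread the value grows with the total counts of the libraries. F7 replicates 3 and 4 had the lowest totals, so their value is not comparable in size with that of deeper pairs. In bulk RNA, fewer cells of a type and less RNA per cell cannot be told apart.

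In the Hippo pathway, the kinases Stk3 and Stk4 activate the kinases Lats1 and Lats2, which phosphorylate Yap1 and TAZ and keep them out of the nucleus. When they are not phosphorylated, Yap1 and TAZ enter the nucleus and bind TEAD factors, and Ctgf, Cyr61 and Amotl2 are among the genes commonly used to read that activity. In the mouse kidney, Fat4 on stromal cells binds Dchs1 on nephron progenitors and is known for restraining the size of the progenitor pool. RNA counts measure neither phosphorylation nor the place of a protein in the cell.

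F7 libraries held 6041556 to 14024859 counts and control libraries 10526591 to 16032175. F7 replicates 3 and 4 were the shallow ones, with 6041556 and 6590712 counts. Their columns in the count table carry mk3, as does an unused F7 column numbered 5. Their sample titles and the remaining columns name mK4. The authors' normalized counts, which are these counts divided by a factor per library, head the same samples with mk4. The targeted gene Foxd2 measured 18.8, 23.3, 16.5 and 14.5 CPM in F7 replicates 1 to 4 and 4.28, 3.19, 4.07, 3.99 and 3.12 CPM in control replicates 1 to 5. Foxd2 RNA averaged 18.3 ± 3.78 CPM in F7 and 3.73 ± 0.538 CPM in control (SD). CPM is the read count scaled by library total and TMM factor. A frameshift is not visible in counts per gene, so Foxd2 RNA is no check of the labels. Of 12 kidney mesenchyme markers 6 were tested, among them Pax2, Sall1 and Hoxa11, whereas Six2, Wt1, Hoxc11 and Hoxd11 had no read in any library. Pax2 (49.1 CPM in F7, 152.6 CPM in control) and Sall1 (35.9 CPM in F7, 60.5 CPM in control) fell. The other 4 tested, with Hoxa11 among them, had no call. The 12 kidney mesenchyme markers summed to 394 to 462 CPM in F7 and 548 to 605 CPM in control, and 8 renal stroma markers to 244 to 251 CPM in F7 and 185 to 228 CPM in control. The 9 ureteric bud markers summed to 28.1 to 36.4 CPM in F7 and 27.2 to 41.7 CPM in control. Among the stroma markers Pdgfrb (89.9 CPM in F7, 37.9 CPM in control) and Ecm1 (45.8 CPM in F7, 31.2 CPM in control) rose. The stromal transcription factor gene Tbx18 fell (52.4 CPM in F7, 69.5 CPM in control), and Foxd1, another, averaged 58.5 CPM in F7 and 68.6 CPM in control without a call. The part of these markers in the results was not tested. The 6 endothelial markers summed to 0.168 to 0.918 CPM in F7 and 0.166 to 0.650 CPM in control. The 6 leukocyte markers summed to 4.13 to 8.14 CPM in F7 and 4.15 to 8.34 CPM in control.

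Of the 9 tested members, 3 rose in F7 (Fat4, Tead2 and Yap1), 2 fell (Fat1 and Amotl2) and 4 did not pass (Wwtr1, Tead1, Ctgf and Cyr61). A gene was called at a Benjamini-Hochberg adjusted p under 0.05 in edgeR's quasi-likelihood test, with the adjustment over all 14730 tested genes. At that threshold 35.3% of all tested genes were called, 17.4% higher and 17.9% lower. The groups did not overlap for 4 members, Fat4, Yap1 and Tead2 on the higher side and Fat1 on the lower side, and for 27.6% of all tested genes. The median log2 fold change of F7 over control was 0.06 for the 9 members and -0.01 for all tested genes.

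**Figure D1:**
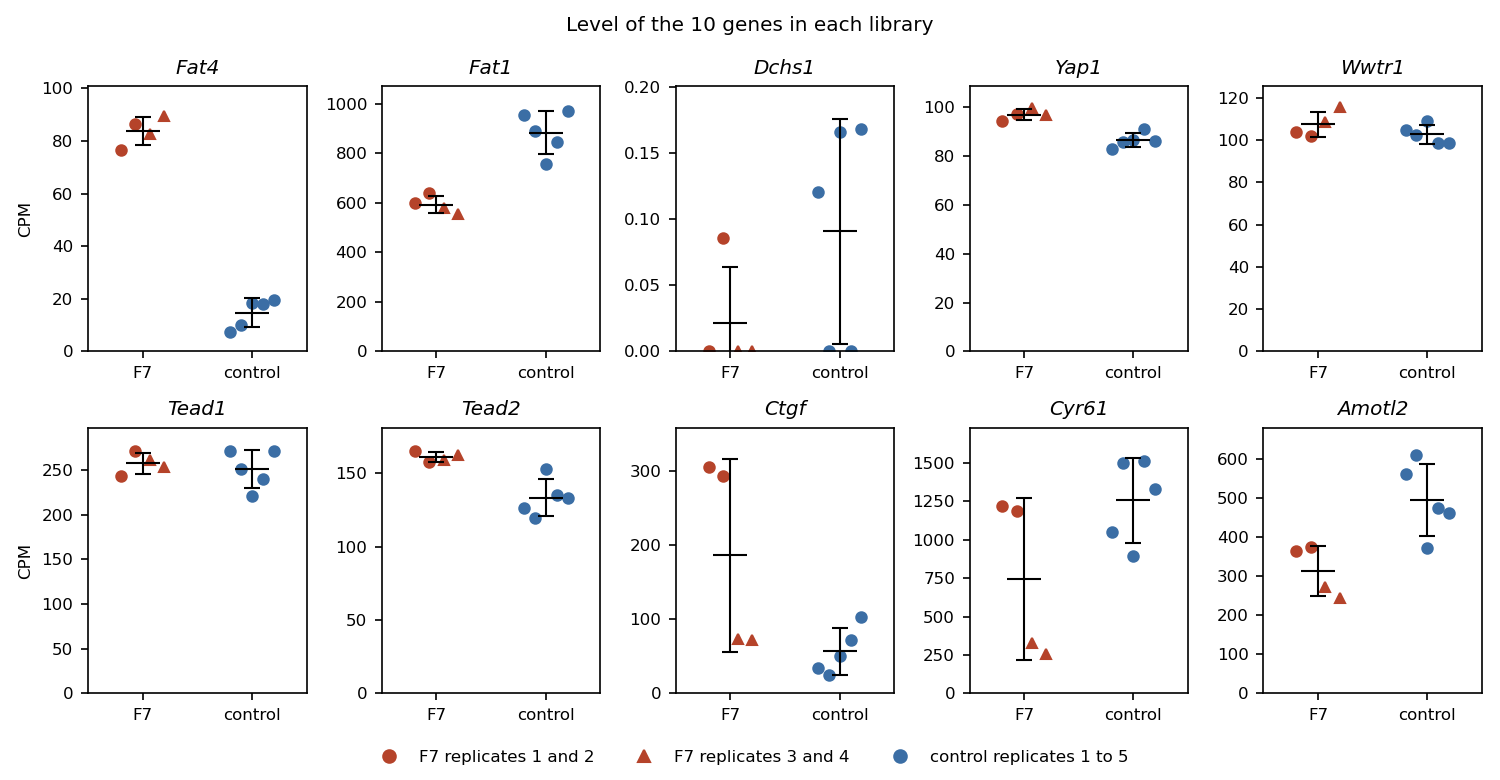
CPM of each of the 10 genes in every library, with F7 at the left and control at the right of each panel; horizontal ticks and bars give the mean and SD. Fat4 lay between 76.7 and 89.3 CPM in F7 and between 7.54 and 19.6 CPM in control, and for Ctgf and Cyr61 F7 replicates 3 and 4 (triangles) lay far below F7 replicates 1 and 2 (circles).

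Fat4 was the member with the highest fold change. Fat4 (ENSMUSG00000046743.6; mm10 chromosome 3, 38886940 to 39011985, plus strand) measured 76.7, 86.3, 82.7 and 89.3 CPM in F7 replicates 1 to 4 and 7.54, 9.85, 18.6, 18.1 and 19.6 CPM in control replicates 1 to 5. The lowest F7 library was well above the highest control, and within the controls replicates 1 and 2 lay below the other three. Fat4 rose to a mean of 83.8 ± 5.41 CPM in F7 (SD, n = 4), against 14.7 ± 5.61 CPM in control (SD, n = 5), or 2.53 on the log2 scale (SE 0.25, adjusted p = 7.12e-05 in edgeR). The value stayed between 2.34 and 2.86 under 19 other settings and passed in each of them, and F7 replicates 3 and 4 differed from F7 replicates 1 and 2 by 0.08 on the log2 scale (SE 0.36). The authors' deposited table gave 2.55, from a fit to unlike groups: it also used F7 column 5, which matches no sample here. The median of the 50 nearest tested genes on the chromosome was 0.17, and 46 of those 50 had a smaller fold change than Fat4. The noncoding gene C230034O21Rik overlaps Fat4 on the opposite strand with 139 reads in F7 and 40 in control, beside 3132 and 910 for Fat4. Whether strand was used when reads were counted is not given in the sources used here, so reads of overlapping genes on opposite strands cannot be told apart.

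Fat1 and Fat2 went the other way. Fat1 (chromosome 8, 44935447 to 45052257, plus strand), the most abundant of the family per exon length, measured 597, 638, 577 and 555 CPM in F7 replicates 1 to 4 and 952, 889, 756, 844 and 971 CPM in control replicates 1 to 5. Each F7 library was below each control. Fat1 fell to 592 ± 35.01 CPM in F7 (SD, n = 4), against 882 ± 87.0 CPM in control (SD, n = 5), or -0.58 on the log2 scale (SE 0.08, adjusted p = 0.000187 in edgeR). Fat1 lies on chromosome 8, where 82.4% of 732 tested genes had a log2 fold change below 0. The chromosome's median was -0.35, that of the 50 genes nearest to Fat1 was -0.36, and 10 of those 50 were lower than Fat1. The part of that regional shift in the Fat1 value was not tested. Fat2, the close relative that was no member, measured 6.80, 7.54, 5.21 and 5.96 CPM in F7 replicates 1 to 4 and 241, 261, 122, 238 and 211 CPM in control replicates 1 to 5. Its log2 fold change of -5.03 (SE 0.26, adjusted p = 7.94e-07 in edgeR) was the lowest of its 51-gene neighbourhood on chromosome 11, whose median was 0.08.

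Dchs1, the ligand of Fat4, was close to absent in both groups. It had 0, 1, 0 and 0 reads in F7 replicates 1 to 4 and 2, 0, 2, 0 and 2 reads in control replicates 1 to 5, too few for a comparison, and the opposite-strand gene Gm15645 had 13 reads in F7 and 46 in control. Its relative Dchs2 was low but rose, to 1.85 ± 0.460 CPM in F7 (SD, n = 4), against 0.538 ± 0.260 CPM in control (SD, n = 5; log2 fold change 1.81, SE 0.35, adjusted p = 0.00160 in edgeR). Fjx1, the mouse relative of the fly Golgi kinase four-jointed that phosphorylates cadherin repeats of Fat and Dachsous, rose as well, to 4.08 ± 0.822 CPM in F7 against 1.70 ± 0.339 CPM in control (log2 fold change 1.27, SE 0.22, adjusted p = 0.000585 in edgeR).

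Scaled by exon length, the summed level of Fat1 to Fat4 was 43.1 ± 2.26 RPKM (CPM per kb of exon) in F7 (SD, n = 4) and 72.0 ± 8.38 RPKM in control (SD, n = 5). Fat4 made up 11.3 ± 0.987% of that sum in F7 and 1.23 ± 0.548% in control. Fat2 made up 1.02 ± 0.120% in F7 and 20.3 ± 3.76% in control. Fat1 was the main member in both groups, with 87.6 ± 0.939% in F7 and 78.5 ± 3.401% in control, and Fat3 was at 0 in F7. These shares combine genes whose fold changes were seen beforehand and are given as a description with no test. The control library with the lowest Fat2 level, replicate 3, at 122 CPM, was also lowest of the controls for Fat1.

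**Figure D2:**
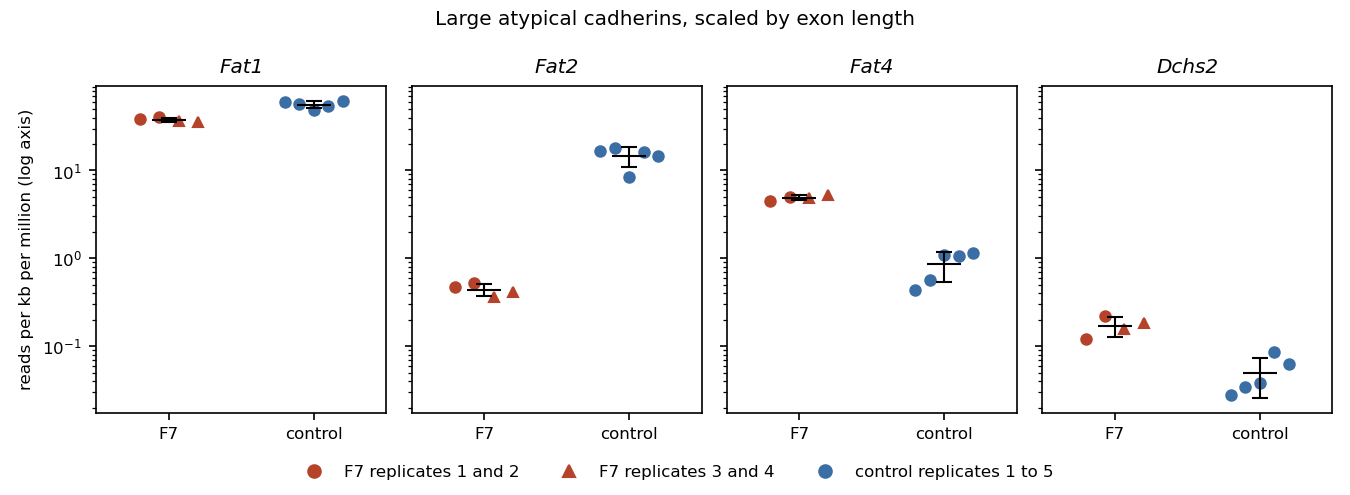
RPKM of Fat1, Fat2, Fat4 and Dchs2 in every library on a shared log axis, F7 left and control right, with mean and SD. Fat4 averaged 4.88 RPKM in F7 and 0.859 RPKM in control, and Fat2 averaged 0.439 RPKM in F7 and 14.8 RPKM in control.

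The co-activators differed little between the groups. Yap1 (chromosome 9, 7931999 to 8004596, minus strand) measured 94.1, 97.2, 99.7 and 96.5 CPM in F7 replicates 1 to 4 and 82.7, 85.7, 86.6, 90.8 and 86.0 CPM in control replicates 1 to 5. The F7 libraries were all above the controls by a narrow margin. Yap1 rose by 0.17 on the log2 scale (SE 0.05, adjusted p = 0.0281 in edgeR). The call was lost without F7 replicate 2 (adjusted p = 0.0645), F7 replicate 3 (0.0640), control replicate 1 (0.0772) or control replicate 2 (0.0616). It was also lost with F7 replicates 1 and 2 alone (0.114), with F7 replicates 3 and 4 alone (0.108) and without the filter on low counts (0.119), and the fold change stayed between 0.15 and 0.19 in all 19 other settings. Wwtr1, the gene of TAZ (chromosome 3, 57455649 to 57575910, minus strand), measured 104, 102, 109 and 115 CPM in F7 replicates 1 to 4 and 105, 103, 109, 98.8 and 98.5 CPM in control replicates 1 to 5, so the groups overlapped (log2 fold change 0.06, SE 0.06, adjusted p = 0.450 in edgeR). Per exon length Wwtr1 was the more abundant of the pair, with 68.2 ± 1.20% of their summed RPKM in F7 and 69.7 ± 1.38% in control.

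Tead2 (chromosome 7, 45215753 to 45233644, plus strand) was the most abundant TEAD gene per exon length in both groups. It measured 165, 158, 159 and 162 CPM in F7 replicates 1 to 4 and 126, 119, 153, 135 and 133 CPM in control replicates 1 to 5. All F7 libraries were above all controls, and control replicate 3 came closest. Tead2 rose by 0.27 on the log2 scale (SE 0.07, adjusted p = 0.00859 in edgeR), and with F7 replicates 3 and 4 as the whole F7 group it had the same 0.27 but missed the threshold (adjusted p = 0.0798). Tead1, on the same chromosome (112679318 to 112906807, plus strand), measured 244, 271, 261 and 253 CPM in F7 replicates 1 to 4 and 271, 251, 221, 239 and 271 CPM in control replicates 1 to 5. The groups overlapped throughout (log2 fold change 0.04, SE 0.07, adjusted p = 0.722 in edgeR). In RPKM, Tead2 stood at 33.6 ± 0.698 in F7 and 27.9 ± 2.59 in control, and Tead1 at 19.0 ± 0.863 in F7 and 18.5 ± 1.58 in control (SD). The other 2 TEAD genes were lower, Tead3 at 6.58 ± 0.490 RPKM in F7 and 7.69 ± 0.540 RPKM in control and Tead4 at 3.47 ± 0.601 RPKM in F7 and 2.73 ± 0.384 RPKM in control.

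**Figure D3:**
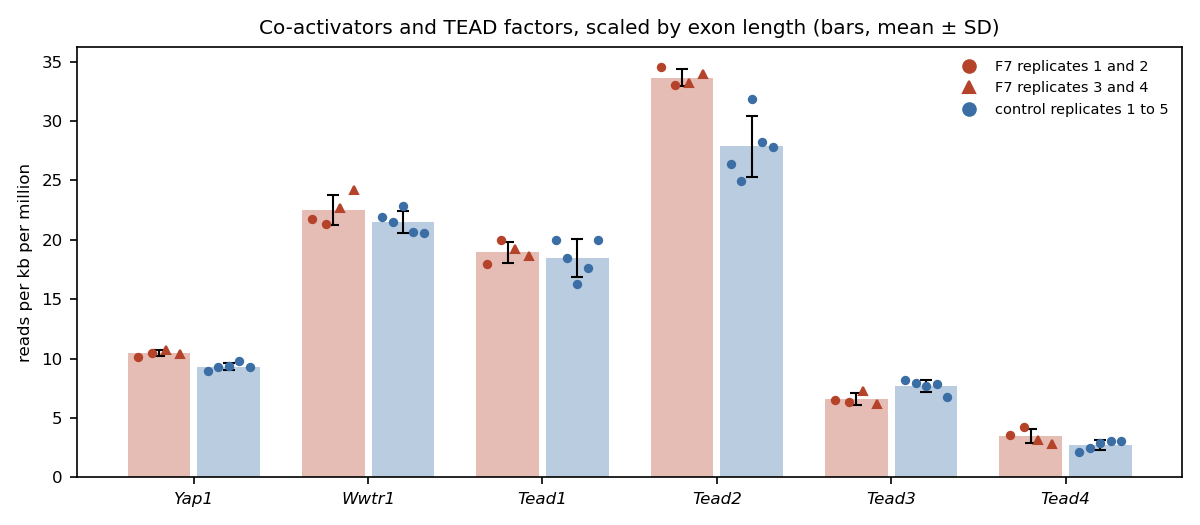
RPKM of the co-activators and of the TEAD genes, F7 bars left of control bars, as mean ± SD with 1 point per library. Tead2 averaged 33.6 RPKM in F7 and 27.9 RPKM in control, and Wwtr1 was above Yap1 in every library.

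Of the 3 target genes Amotl2 fell, and Ctgf and Cyr61 did not pass. The promoters of Cyr61 and Amotl2 are shown because they carry the word by which TEAD factors are known to bind. RefSeq sequences were found for 7 of the 10 members, and the 250 bases before the RefSeq start were searched on both strands for CATTCC, which reads GGAATG on the other strand. The word occurred in 5 of the 7, Fat1, Yap1, Wwtr1, Cyr61 and Amotl2, and in 12.6% of all 32851 promoter entries. The Fat1 entry (chr8:44949958-44950207) and the Amotl2 entry lie inside the gene spans printed here, downstream of the first annotated base. Each stands before a later RefSeq start, so the word there need not be in the main promoter of the gene. The sequences run 5′ to 3′ on the gene's strand in build GRCm38.p6, which is mm10, and capitals mark the word. In Cyr61 (chr3:145649986-145650235, minus strand) its first base is at -103 from the start, and in Amotl2 (chr9:102717554-102717803, plus strand) at -65.
Cyr61: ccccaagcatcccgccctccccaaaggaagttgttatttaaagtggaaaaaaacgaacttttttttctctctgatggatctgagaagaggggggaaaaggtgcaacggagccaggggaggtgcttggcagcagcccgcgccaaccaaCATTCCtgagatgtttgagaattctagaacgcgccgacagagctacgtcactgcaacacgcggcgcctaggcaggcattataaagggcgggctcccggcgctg
Amotl2: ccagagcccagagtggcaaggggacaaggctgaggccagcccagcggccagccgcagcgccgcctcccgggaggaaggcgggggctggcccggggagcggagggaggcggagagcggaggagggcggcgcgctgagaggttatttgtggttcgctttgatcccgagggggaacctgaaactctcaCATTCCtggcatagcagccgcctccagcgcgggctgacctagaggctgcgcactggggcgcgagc
A match in letters is a description, and binding was not measured.

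Amotl2 (chromosome 9, 102716672 to 102733418, plus strand), a scaffold of the angiomotin family that binds YAP, measured 364, 374, 274 and 244 CPM in F7 replicates 1 to 4 and 561, 611, 373, 474 and 461 CPM in control replicates 1 to 5. Control replicate 3 lay level with F7 replicate 2, and the other controls were above all F7 libraries. Amotl2 fell to 314 ± 64.6 CPM in F7 (SD, n = 4), against 496 ± 92.6 CPM in control (SD, n = 5), or -0.66 on the log2 scale (SE 0.16, adjusted p = 0.00896 in edgeR). The threshold was missed when the F7 group was limited to replicates 1 and 2 (log2 fold change -0.42, adjusted p = 0.0768). Limited to replicates 3 and 4, it gave -0.93 (adjusted p = 0.00472). Without the filter on low counts the adjusted p was 0.0504.

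Ctgf (chromosome 10, 24595442 to 24598683, plus strand) and Cyr61 (chromosome 3, 145646976 to 145649981, minus strand) encode secreted matrix-associated proteins of the CCN family. Ctgf measured 305, 293, 73.6 and 72.5 CPM in F7 replicates 1 to 4 and 34.1, 24.2, 49.96, 72.3 and 102 CPM in control replicates 1 to 5. F7 replicates 1 and 2 were above all controls, and replicates 3 and 4 lay inside the control range. With all libraries the log2 fold change was 1.74 (SE 0.62, adjusted p = 0.0647 in edgeR), which missed the threshold. It passed in DESeq2 (adjusted p = 0.0158) and limma voom (0.0255), without F7 replicate 3 (0.0471) or F7 replicate 4 (0.0444), and with F7 replicates 1 and 2 alone (log2 fold change 2.42, adjusted p = 0.0143). With F7 replicates 3 and 4 alone it was 0.38 (adjusted p = 0.685). The authors' deposited table gave 1.52 with an adjusted p of 0.0659, from a fit that also used F7 column 5 and so compares unlike groups.

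Cyr61 measured 1219, 1185, 325 and 258 CPM in F7 replicates 1 to 4 and 1047, 1498, 891, 1514 and 1326 CPM in control replicates 1 to 5. Here F7 replicates 1 and 2 lay inside the control range and replicates 3 and 4 below it. The log2 fold change was -0.75 with all libraries (SE 0.51, adjusted p = 0.296 in edgeR), -0.06 with F7 replicates 1 and 2 alone (adjusted p = 0.851) and -2.10 with replicates 3 and 4 alone (SE 0.23, adjusted p = 0.000253).

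Between F7 replicates 3 and 4 and F7 replicates 1 and 2, Cyr61 was the only member called, at -2.04 on the log2 scale (SE 0.24, adjusted p = 0.0133 in edgeR). No member was called there without the filter on low counts or at an adjusted p under 0.01. In that comparison 10 of 14730 genes were called (0.0679%), of which 1 was higher (0.00679%) and 9 were lower (0.0611%) in replicates 3 and 4. Ctgf had a like fold change there (-2.03, SE 0.63, adjusted p = 0.416) and Amotl2 a smaller one (-0.51, SE 0.19, adjusted p = 0.436), and neither passed. The other called genes, named after their values were seen, included the ERK phosphatases Dusp4 (-1.16) and Dusp6 (-2.05), Fosl1 (-1.31), Plk2 (-1.34) and Ptgs2 (-1.42). Cxcl1 (-2.12), Hmga2 (-1.03) and Vmp1 (-0.86) were called as well. All of these were lower in replicates 3 and 4, and Cbr2 (1.16) was higher. The summed level of 16 immediate early genes, which respond to serum within minutes, was 673 and 537 CPM in F7 replicates 3 and 4. It was 2014 CPM in each of F7 replicates 1 and 2, and 1998 to 5253 CPM in control. Egr1 was the largest part of that sum in F7, with 748, 765, 171 and 119 CPM in replicates 1 to 4. Of the 16 genes only Fosl1 was called between the F7 pairs. Depth and the column name in the raw counts also differ along this line, and their part in the Cyr61 and Ctgf values was not tested.

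In F7 the ratio of Ctgf to Cyr61 varied less between libraries than either level did. That ratio, with both genes scaled by exon length, was 0.177, 0.175, 0.160 and 0.198 in F7 replicates 1 to 4 and 0.0230, 0.0114, 0.0396, 0.0337 and 0.0545 in control replicates 1 to 5. It averaged 0.177 ± 0.0157 in F7 (SD, n = 4) and 0.0324 ± 0.0164 in control (SD, n = 5), with no overlap. Within the controls the ratio varied more, relative to its mean, than Cyr61 did, which ran from 441 to 750 RPKM. The ratio was chosen after the values were seen and is given without a test. The ratio of Amotl2 to Cyr61 ran from 0.0958 to 0.303 in F7 and from 0.101 to 0.172 in control, and so did not separate the groups.

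**Figure D4:**
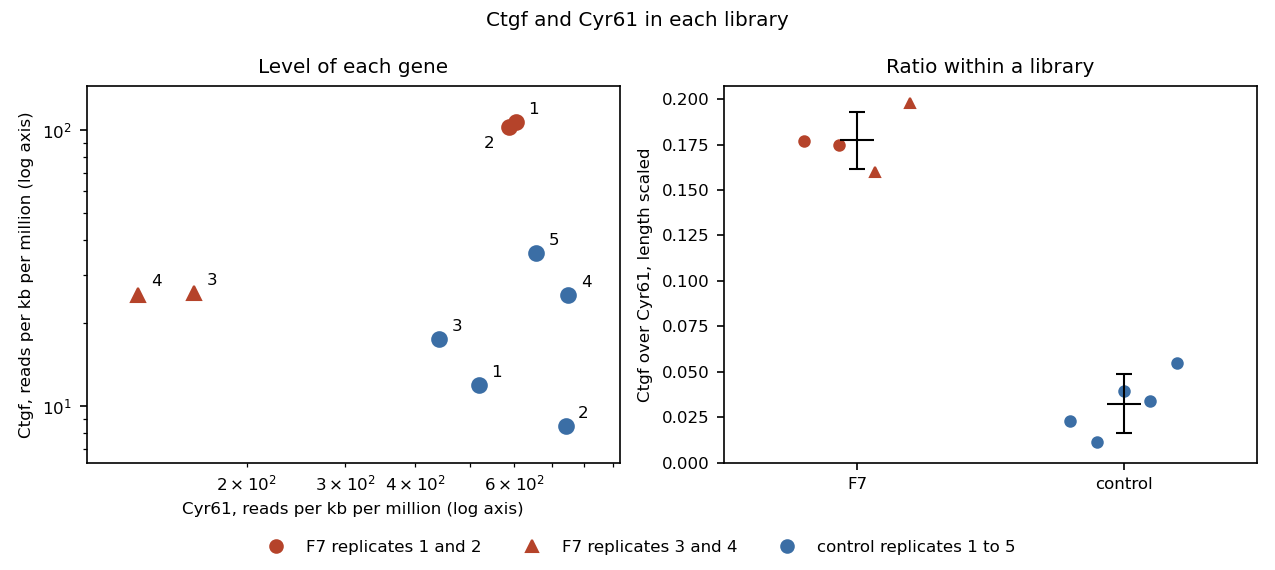
Left, Ctgf against Cyr61 in RPKM for every library on log axes, with replicate numbers beside the points; right, the ratio of Ctgf to Cyr61 in each library with mean and SD, F7 left of control. The 4 F7 ratios lie between 0.160 and 0.198 and the 5 control ratios between 0.0114 and 0.0545.

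The rest of the pathway was read from 5 lists: planar polarity and other atypical cadherins, junctional and scaffold regulators, the kinase cassette, other TEADs with their Vestigial-like cofactors, and other YAP/TAZ targets. Together they held 71 genes, of which 65 were tested, 12 rose, 19 fell and 34 did not pass. The share called was 47.7%, against 35.3% of all tested genes, with a median log2 fold change of -0.04. Calls were most frequent in the list of planar polarity and other atypical cadherins. The kinase cassette and the junctional and scaffold regulators did not exceed the share of all tested genes. The lists were chosen with earlier results of these data known, so the share is a description. Direction was mixed in each list with 5 or more tested genes.

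In the kinase cassette 4 of 15 tested genes rose, 1 fell and 10 did not pass (median 0.02). The core kinases Stk3 (0.05), Lats1 (-0.04) and Lats2 (-0.01) did not pass on the log2 scale, and Stk4 rose by 0.22 (adjusted p = 0.00604 in edgeR). Mink1 (0.25) and Map4k4 (0.18), kinases that act on Lats, and the Lats co-activator Mob1a (0.18) rose by small amounts. With F7 replicates 3 and 4 alone, Stk4 (adjusted p = 0.0691), Mink1 (0.152), Map4k4 (0.152) and Mob1a (0.146) missed the threshold. Map4k4 also lost its call without F7 replicate 2 (adjusted p = 0.0610) or control replicate 2 (0.0568). Mob1a lost it without F7 replicates 2, 3 or 4 (0.0966, 0.0515 and 0.0674) and without control replicates 1, 2 or 4 (0.0906, 0.0738 and 0.0606). Map4k3, of the same kinase family, fell to 77.2 ± 6.17 CPM in F7 (SD, n = 4), against 138 ± 12.1 CPM in control (SD, n = 5; log2 fold change -0.85, SE 0.08, adjusted p = 3.402e-06 in edgeR).

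Among the junctional and scaffold regulators 1 of 16 tested genes rose, 4 fell and 11 did not pass (median -0.08). Nf2, whose product merlin brings Lats to the membrane, rose by 0.31 (adjusted p = 0.000988 in edgeR). Amot, the founding angiomotin and relative of Amotl2, fell to 489 ± 36.9 CPM in F7 (SD, n = 4), against 836 ± 159 CPM in control (SD, n = 5; log2 fold change -0.77, SE 0.13, adjusted p = 0.000527 in edgeR), whereas Amotl1 measured -0.07 without a call. The YAP-binding phosphatase Ptpn14 fell by 0.33, and the Lats-binding LIM proteins Limd1 and Ajuba fell by 0.21 (Limd1) and 0.22 (Ajuba). Limd1 lost its call without F7 replicate 2 (adjusted p = 0.0627), and Ajuba without F7 replicate 3 (0.0681) or 4 (0.0776). With F7 replicates 1 and 2 alone Ajuba was at -0.11 (adjusted p = 0.262), and Limd1 (0.0525) and Ptpn14 (0.0740) also missed the threshold, as both did with F7 replicates 3 and 4 alone (0.147 for Limd1 and 0.105 for Ptpn14).

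In the list of other atypical cadherins and planar cell polarity 4 of 15 tested genes rose, 7 fell and 4 did not pass (median -0.08). Besides Fat2, Prickle2, a cytoplasmic polarity protein, fell to 1.64 ± 0.692 CPM in F7 (SD, n = 4), against 17.3 ± 1.76 CPM in control (SD, n = 5; log2 fold change -3.39, SE 0.20, adjusted p = 4.96e-08 in edgeR). The membrane protein Vangl1 (-0.37) and the adaptor Dvl3 (-0.38) fell by less. Besides Dchs2 and Fjx1, the receptor Fzd6 (0.36) and the polarity cadherin Celsr1 (0.31) rose. Celsr1 missed the threshold with F7 replicates 1 and 2 alone (adjusted p = 0.0983) or 3 and 4 alone (0.0636). Of the 4 tested TEADs and Vestigial-like genes, Vgll4, a TEAD-binding repressor, fell by 0.58 on the log2 scale (adjusted p = 9.82e-05 in edgeR) and Tead3 fell by 0.23. Tead3 lost its call without F7 replicates 1, 2 or 4 (adjusted p = 0.0797, 0.0893 and 0.0795) and without control replicates 1 or 4 (0.0657 and 0.0565), and with either pair of F7 libraries alone (0.0518 for replicates 1 and 2, 0.240 for 3 and 4). Tead4 (0.37) and Vgll3 (0.19) did not pass, Vgll1 had no read and Vgll2 almost none.

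Of 18 other tested YAP/TAZ targets 4 rose, 6 fell and 8 did not pass (median -0.07). The receptor tyrosine kinase Axl rose to 576 ± 53.7 CPM in F7 (SD, n = 4), against 344 ± 42.0 CPM in control (SD, n = 5; log2 fold change 0.75, SE 0.09, adjusted p = 5.07e-05 in edgeR). Dock5, an activator of Rac, rose by 0.79 and Ankrd1 by 0.77, and Fjx1, described above, and Ptpn14 also stand in this list. Ankrd1 lost its call without F7 replicate 1 (adjusted p = 0.0601), F7 replicate 2 (0.0562), control replicate 1 (0.0569) or control replicate 2 (0.0504). With F7 replicates 3 and 4 alone Ankrd1 was at 0.33 (adjusted p = 0.205), against 1.10 with replicates 1 and 2 alone. Rbms3 also missed the threshold with F7 replicates 3 and 4 alone (0.0641). The growth factor Tgfb2 fell to 16.8 ± 1.61 CPM in F7 (SD, n = 4), against 45.6 ± 3.06 CPM in control (SD, n = 5; log2 fold change -1.46, SE 0.09, adjusted p = 5.84e-08 in edgeR). The surface nucleotidase Nt5e (-0.99), the secreted protein Ccdc80 (-0.64) and the RNA-binding protein Rbms3 (-0.53) fell as well, and Lats2, both kinase and target, measured -0.01 without a call.

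**Figure D5:**
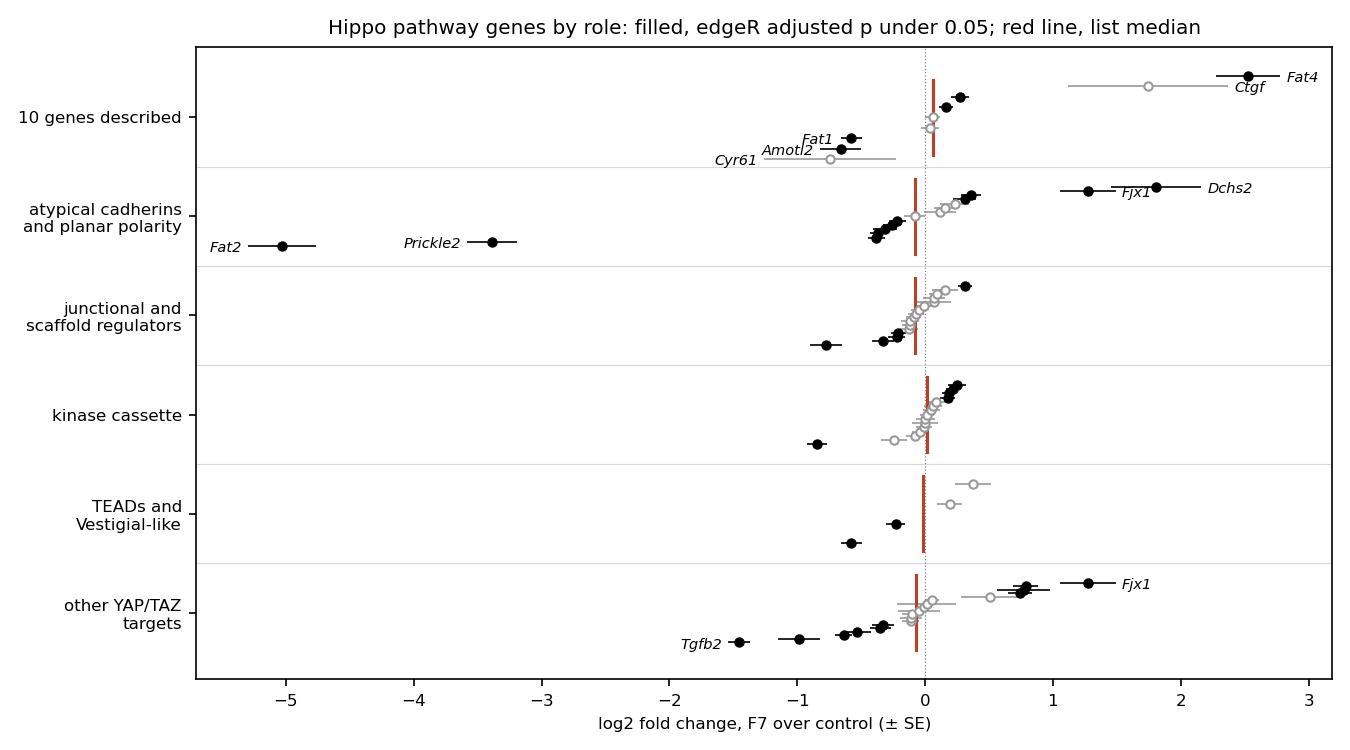
Log2 fold change of F7 over control with its SE for each tested gene, by role; filled points passed an edgeR adjusted p under 0.05, open points did not, and red lines are list medians. Medians lie between -0.08 and 0.06, and single genes reach from Fat2 at -5.03 to Fat4 at 2.53.

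Ctgf and Cyr61 are also known as targets of serum response factor and as early response genes, so those lists are set beside them. Of 10 tested SRF and MRTF targets 2 rose, 1 fell and 7 did not pass. Fhl2 rose by 0.88 and Tpm1 fell by 0.35, while Zyx rose by 0.23 and lost its call without F7 replicate 1 (adjusted p = 0.0692) or 2 (0.0519). Of 16 immediate early genes 1 rose, 4 fell and 11 did not pass (median -1.02). Of all tested genes 35.3% were called, a share that neither list exceeded. The log2 fold change was -2.55 for Fos and -3.67 for Fosb, which both fell. Jund (-0.57) and Junb (-1.48), both on chromosome 8, fell as well, and Junb lost its call without F7 replicate 3 (0.0566), control replicate 1 (0.0622) or control replicate 2 (0.0629). Fosl1 rose by 1.06 and lost its call without F7 replicate 1 (0.0580) or 2 (0.0517). With F7 replicates 3 and 4 alone Fosl1 was at 0.20 (adjusted p = 0.510), against 1.52 with replicates 1 and 2 alone. With F7 replicates 3 and 4 alone Zyx (0.16, adjusted p = 0.227) and Fosb (-4.53, adjusted p = 0.0600) missed the threshold, Fos was at -4.38 and Junb at -2.42.

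The genes whose centred log2 CPM profile over the 9 libraries lay nearest to that of Fat4 were Tmeff1, Msln and Snx10, at a root mean square difference of 0.28, 0.32 and 0.32. Their log2 fold changes were 2.02, 2.53 and 2.23. Nearest to Ctgf were Itgb7, Cth and Has2, at 0.40, 0.41 and 0.46, with log2 fold changes of 1.48, 1.59 and 1.38. With F7 replicates 3 and 4 alone these were 0.71 for Itgb7 (adjusted p = 0.178), 1.07 for Cth (0.164) and 0.76 for Has2 (0.160), and none of them passed. Cth also lost its call without F7 replicate 1 (0.0566) or 2 (0.0535). The ranking covered tested genes whose mean log2 CPM reached 2, and it is a description. The genes were picked by their profile over the same 9 libraries. Fold changes like those of Fat4 or Ctgf, and lower values in F7 replicates 3 and 4 for those near Ctgf, follow from that choice.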

How the data were processed

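The submitters' processing notes name featureCounts, DESeq2 1.18.1, R 3.4.3 and the build mm10. Neither the aligner nor the annotation is given in the sources used here. Every test started from the raw counts per gene symbol that the authors deposited. The signal table was made by the authors by dividing counts by a size factor per library and served here only as a check. The authors' deposited comparison holds log2 fold changes and adjusted p-values. The counts hold 1 further F7 column, numbered 5 and also headed mk3, that matches no sample and was left out here, whereas the authors' fit used it.

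Counts were fitted with edgeR 4.0.16 (robust quasi-likelihood, TMM, group only) in R 4.3.3. Genes passed filterByExpr (minimum count 10, total 15). SE came from the fold change and the F statistic. F7 replicates 3 and 4 against 1 and 2 came from the same model with 3 groups. RPKM is CPM divided by the merged exon length in GENCODE vM21. That annotation matched 94.1% of tested genes by symbol and gave the positions and neighbours. The procedure was also run on simulated counts, drawn independently for each library. That run does not cover the closer pairs of libraries within F7.

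The members and lists were chosen with earlier results of these data known. Named genes were all members, Foxd2, up to 4 called genes per direction of each list by adjusted p, and the 3 nearest profiles of Fat4 and Ctgf. Fat2 entered by its list. Alternatives were other scaling factors (RLE, upper quartile), no filter, 1 CPM in 4 libraries, DESeq2 1.42.0, limma 3.58.1 voom, a replicate block, each library left out, parts of either group and an adjusted p under 0.01.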

Additional observations from a re-analysis of the deposited data

How the results depend on the processing

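The count of called members was 5 and stayed between 4 and 6 when each library was left out, and was 3 without the filter on low counts, where 27659 genes were tested with a median log2 fold change of -0.11 and Yap1 (adjusted p = 0.119) and Amotl2 (0.0504) missed the threshold. Of the pathway genes 31 were called, 24 to 33 with a library left out, 18 with F7 replicates 3 and 4 as the only F7 libraries and 19 at an adjusted p under 0.01. Between F7 replicates 3 and 4 and F7 replicates 1 and 2, where 1 member was called, edgeR called 0 without the filter and 0 at an adjusted p under 0.01. An unadjusted p under 0.05 was found for 3 members there, and DESeq2 and limma voom called 1 each. The log2 fold change of Tead1 changed sign without control replicate 3 (-0.00681, adjusted p = 0.944; up to 0.0648 with another library left out), and passed in neither case. The replicate numbers did not pair the samples: deviations from the group means correlated by -0.05, 0.07, 0.21 and -0.05 for the same numbers. With the number as a replicate block 4 members and 32 pathway genes were called, Yap1 (adjusted p = 0.0692) and Map4k4 (0.0539) no longer. Of 35 named list genes 20 passed in each of 19 alternatives. F7 replicates 3 and 4 held fewer reads, which limits genes as low as Dchs2 and Fjx1.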
